A study of Mus musculus with 6 samples.

Results

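Genes of 9 enzymes and enzyme subunits that make superoxide or hydrogen peroxide were followed in C2C12 cells, a mouse myoblast line, after silencing of PARP2. They were Nox1, Nox4, Cyba, Cybb, Duox1, Maoa, Maob, Aox1 and Xdh, a list of oxidases. The list was drawn up with earlier results of these data known. Each gene was read from its brightest probe set among those annotated to it alone. All 9 of 9 were measured, among 19938 genes read in the same way, and each had 1 such probe set. The shPARP2 cells carried a lentiviral shRNA against PARP2 and the scPARP2 cells a lentiviral scrambled shRNA, and each was a single line kept under puromycin, so that an effect of the silencing and a trait of the line cannot be told apart. For either line there were 3 samples of total RNA, each on its own Affymetrix mouse gene array, and whether they came from separate cultures is not stated. The p-values therefore reflect only how far these samples scatter, and that scatter may be technical. The study looked for the source of reactive species in cells with PARP2 silenced. The comparison asks how the mRNA of enzymes that can make reactive oxygen differed between the lines.

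NADPH oxidases are membrane enzymes that pass electrons from NADPH to oxygen. Nox1, Nox4 and Cybb (gp91phox, also named NOX2) encode catalytic subunits that work in a complex with p22phox, the product of Cyba, while Duox1 encodes a dual oxidase that needs a maturation factor in place of p22phox. Phagocytes make superoxide with NOX2, colon epithelium is rich in NOX1, and NOX4 releases mainly hydrogen peroxide without the cytosolic activators that NOX1 and NOX2 need. Maoa and Maob encode the monoamine oxidases of the outer mitochondrial membrane, which release hydrogen peroxide as they deaminate serotonin, noradrenaline or dopamine. Aox1 and Xdh encode related molybdenum enzymes of the cytosol, aldehyde oxidase and xanthine oxidoreductase, that can hand electrons to oxygen.

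The deposited values are log2 signals made by RMA, so a difference of 1 is a 2-fold change. Fold changes are shPARP2 over scPARP2, and the test is limma's moderated test, its p-values adjusted over all 35556 probe sets by Benjamini-Hochberg, with an adjusted p under 0.05 called. Signals of different probe sets are not comparable as amounts of mRNA, and 1210 probe sets of olfactory and vomeronasal receptors, which are hardly expressed outside the nose, were used as a yardstick for dim signal. Their mean signals had a median of 5.06 and a 95th percentile of 6.64. Array medians lay between 7.04 and 7.18, Pearson r between arrays was 0.989 to 0.992 within shPARP2, 0.995 within scPARP2 and 0.979 to 0.983 between the lines, and the median SD per probe set was 0.142 in shPARP2 and 0.0753 in scPARP2 cells. Parp2 itself read 7.86, 8.14 and 7.91 in shPARP2 cells, against 8.94, 9.13 and 9.05 in scPARP2 cells. Parp2 thus stood at 47.6% of its scPARP2 signal, with a log2 fold change of -1.07, a standard error (SE) of 0.10 and a limma adjusted p of 0.00103. The myoblast markers Myod1, Myf5, Cdh15, Des, Pax7 and Myog were all above the receptor level. Of these 6, 4 rose in shPARP2 cells (Myf5 by 1.13, Myog by 0.83, Cdh15 by 0.48 and Des by 0.39 on the log2 scale), where 12.4% of all genes rose. Myod1 and Pax7 did not pass the test, with log2 fold changes of -0.20 and -0.05 (limma adjusted p = 0.753 and 0.745). Myod1 scattered widely in shPARP2 cells, with readings of 9.79, 10.19 and 8.89. The call of Des was lost once shPARP2 replicate 1 or 2 or any single scPARP2 array was left out (limma adjusted p from 0.0743 to 0.148), and also after median centring (0.085) and after quantile normalization (0.0534). The summed log2 signal of these 6 markers was 59.0 to 61.4 in shPARP2 and 57.5 to 58.0 in scPARP2 arrays, and its part in the results below was not tested.

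Among the oxidases 2 genes rose, 2 fell and 5 did not pass the test. Nox4 and Maob were higher and Aox1 and Maoa were lower in shPARP2 cells, and 3 of these 4 changed by more than 2-fold. Over all genes, 24% passed the test, 12.4% upward and 11.6% downward, and among the 13290 genes with a mean signal above the receptor level 34.2% passed. Of the 9 oxidases 5 had a mean above that level, and 3 of these 5 passed. Changes past 2-fold that passed the test were found in 3 of the 9 and in 3.5% of all genes. Maoa, at 2.04-fold, lay close to that cut-off, and without shPARP2 replicate 1 its log2 fold change was -0.97. As the list was drawn up with earlier results known, its share is not read as a trait of such enzymes. The arrays of the lines did not overlap for 5 of the 9 genes, where 42.1% of all genes showed no overlap. The median log2 fold change of the 9 genes was 0.04 against -0.024 for all genes, and the median size of the change, regardless of sign, was 0.16 against 0.14. Ranked over all 19938 genes, Aox1 had the 110th and Maoa the 312th lowest log2 fold change, and Nox4 the 240th and Maob the 592nd highest.

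**Figure D1:**
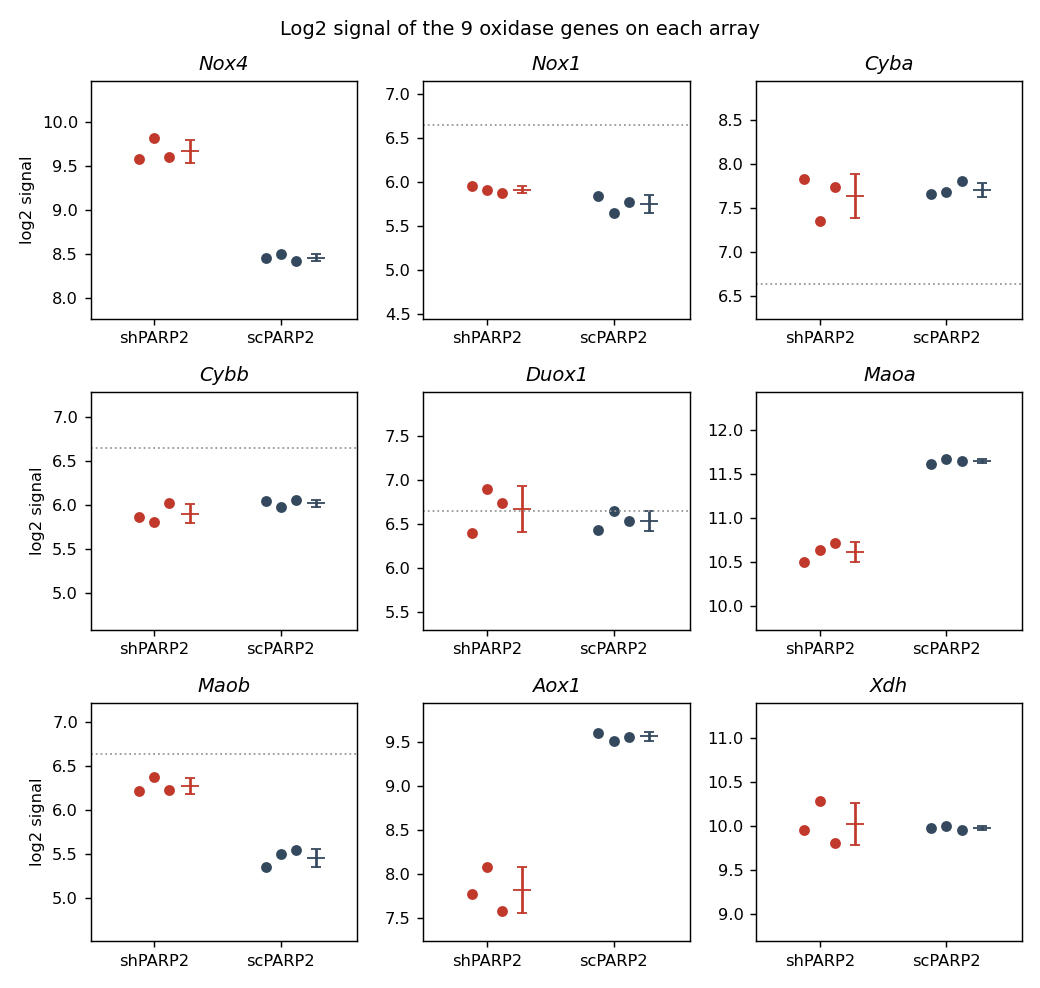
Log2 signal (vertical axis) of each of the 9 oxidase genes on the 3 shPARP2 and 3 scPARP2 arrays. Points are arrays, bars beside them the mean and SD of 3, and the dotted line, where it falls in range, is the 95th percentile of the receptor probe sets (6.64); every panel spans the same height, and the shPARP2 points lie apart from the scPARP2 points for Nox4, Maoa, Maob and Aox1, and by only 0.02 for Nox1.

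To show the start regions of the genes that changed most, the 300 bases around the RefSeq start of Aox1, Maoa and Nox4 are given, from 250 before to 50 after it on the gene's strand (build GRCm38.p6). Of the 9 genes 7 had such a window, and Maob and Xdh are named only. Capitals mark matches, on either strand, of GGGCGG (a GC box, which Sp factors bind) or GCGTG (the core of a xenobiotic response element).
Aox1, chr1:58029719-58030018, + strand: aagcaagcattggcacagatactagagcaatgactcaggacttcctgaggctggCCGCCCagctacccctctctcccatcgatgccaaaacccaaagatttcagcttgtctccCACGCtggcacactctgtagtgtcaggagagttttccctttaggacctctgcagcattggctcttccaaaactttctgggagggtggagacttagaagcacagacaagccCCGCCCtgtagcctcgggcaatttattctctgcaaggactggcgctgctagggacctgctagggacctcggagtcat
Maoa, chrX:16619448-16619747, + strand: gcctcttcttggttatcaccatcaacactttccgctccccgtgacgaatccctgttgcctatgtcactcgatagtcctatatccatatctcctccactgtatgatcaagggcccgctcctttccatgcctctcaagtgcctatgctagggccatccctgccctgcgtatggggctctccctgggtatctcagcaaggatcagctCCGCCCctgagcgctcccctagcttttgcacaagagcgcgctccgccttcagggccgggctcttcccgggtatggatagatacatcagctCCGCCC
Nox4, chr7:87246399-87246698, + strand: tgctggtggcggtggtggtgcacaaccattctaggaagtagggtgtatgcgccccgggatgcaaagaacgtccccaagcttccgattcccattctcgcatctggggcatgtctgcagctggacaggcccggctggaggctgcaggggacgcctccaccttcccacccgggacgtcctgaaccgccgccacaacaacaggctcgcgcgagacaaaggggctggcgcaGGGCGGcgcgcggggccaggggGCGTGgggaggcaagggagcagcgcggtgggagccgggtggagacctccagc
The windows of Aox1 and Maoa hold 2 GC boxes each and that of Nox4 holds 1. GC boxes occur in 35.7% of 32851 such windows. A GCGTG stands once in the windows of Aox1 and Nox4 and not in that of Maoa, against 32.4% of all windows. The core of the antioxidant response element that NRF2 and MAF proteins bind, TGACNNNGC, was searched on both strands as well, and 0 of the 7 windows hold it, against 12.4% of all windows. The TATA box TATAAA is also in none of the 7, against 13.6%. GC content was 54.3% for Aox1, 57.7% for Maoa and 68.3% for Nox4, with a median of 52.7% over all windows. No marked matches overlap one another. These are matches of letters in a short window, and binding was not measured.

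Nox4, whose start region is the richest in GC of those shown, was the NADPH oxidase whose mRNA passed the test. Its probe set (10554752) read 9.57, 9.81 and 9.60 in shPARP2 cells, against 8.45, 8.49 and 8.41 in scPARP2 cells. The lowest shPARP2 array stood 1.08 above the highest scPARP2 array. Nox4 averaged 9.66 ± 0.13 in shPARP2 and 8.45 ± 0.04 in scPARP2 cells (SD, n = 3 each), which gives a log2 fold change of 1.21 (SE 0.09, 95% confidence interval 1.00 to 1.42, limma adjusted p = 0.000409) or 2.31-fold. In a culture sampled in bulk, a change in how many cells express a gene and a change in the mRNA per cell cannot be told apart. Under every alternative run, the log2 fold change of Nox4 stayed between 1.13 and 1.25 and its adjusted p at or below 0.0044.

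The partner subunit of NOX4 did not pass the test. Cyba (10582303) read 7.83, 7.36 and 7.74 in shPARP2 cells and 7.66, 7.68 and 7.81 in scPARP2 cells. The shPARP2 arrays held both the highest and the lowest value, and shPARP2 replicate 2 was the low array. Cyba had a log2 fold change of -0.07 (95% confidence interval -0.39 to 0.24, limma adjusted p = 0.789), and without shPARP2 replicate 2 it was 0.07 (adjusted p = 0.615). The interval leaves room for a change of either sign, but not for one as large as that of Nox4.

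The other catalytic subunits were dim. Nox1 (10606640) read 5.95, 5.91 and 5.87 in shPARP2 cells and 5.84, 5.64 and 5.77 in scPARP2 cells. These arrays did not overlap, yet the gap was 0.02 and the log2 fold change of 0.16 (95% confidence interval -0.03 to 0.34) did not pass the test (limma adjusted p = 0.237). Cybb (10603551) read 5.86, 5.81 and 6.02 in shPARP2 cells and 6.04, 5.98 and 6.05 in scPARP2 cells, with a log2 fold change of -0.13 (95% confidence interval -0.31 to 0.06, limma adjusted p = 0.348). Nox1 and Cybb stayed below the receptor level of 6.64 on all 6 arrays. Duox1 (10475456) read 6.39, 6.90 and 6.73 in shPARP2 cells and 6.43, 6.65 and 6.53 in scPARP2 cells, around that level. The spread of Duox1 within shPARP2 cells, 0.26 (SD, n = 3), exceeded its log2 fold change of 0.14 (95% confidence interval -0.19 to 0.48, limma adjusted p = 0.592).

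Cybb is a gene of phagocytes, and their markers were looked at beside it. Of 10 macrophage and leukocyte markers 3 had a mean above the receptor level (Cd68, Cd14 and Tyrobp), while Ptprc, Adgre1, Csf1r and Itgam were below it on every array. None of the 10 rose and 1, Cd68, a lysosomal protein that other cells also make, fell by 0.72 on the log2 scale (limma adjusted p = 0.00119), and its part in the other results was not tested. Before adjustment, 2 of the 10 had a p under 0.05, Cd68 and Lyz2. Lyz2, which encodes a lysozyme, had a log2 fold change of 0.67 (limma adjusted p = 0.0565). With a trended and robust variance or with single-gene probe sets only, 1 of the 10 was called higher. The summed log2 signal of the 10 was 62.5 to 64.0 in shPARP2 and 63.4 to 64.1 in scPARP2 arrays. None of the markers of epithelial, endothelial, adipocyte, liver or nerve cells that were measured (6, 6, 5, 4 and 4 genes) passed the test in limma. Among these, Tek and Vwf, genes of endothelial cells, had an unadjusted p under 0.05, with log2 fold changes of -0.31 and -0.19. In the same order of cell types, 4, 2, 2, 1 and 1 of the markers had a mean above the receptor level. A mean above that level is thus not by itself a sign of expression in these cells.

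Further genes of the NADPH oxidase system moved in either direction. Of 21 listed genes 20 were measured, and besides the oxidases themselves 1 of 15 rose, 3 fell and 11 did not pass the test. Over all genes 24% passed the test, as did 34.2% of those with a mean above the receptor level. Hvcn1, the voltage-gated proton channel that carries off the charge NADPH oxidases leave behind, rose most. Hvcn1 read 9.38, 9.44 and 9.33 in shPARP2 cells, against 7.13, 7.21 and 7.11 in scPARP2 cells, a log2 fold change of 2.23 (SE 0.07, limma adjusted p = 2.54e-05) or 4.69-fold. The arrays of the lines were 2.12 apart, a wider gap than for any of the 9 oxidases. Sh3pxd2b, which encodes the adaptor TKS4, related to the organizer subunit p47phox, read 8.90, 8.95 and 9.07 in shPARP2 cells, against 9.96, 9.90 and 9.82 in scPARP2 cells. It fell by 0.92 on the log2 scale (SE 0.08, limma adjusted p = 0.000708). The other falls, named here after their values were seen, were those of Poldip2, a partner of NOX4 known from vascular smooth muscle, and Ncf4, the p40phox subunit of phagocytes. Poldip2 had a log2 fold change of -0.70 (SE 0.13, limma adjusted p = 0.0110) and Ncf4 one of -0.47 (SE 0.10, limma adjusted p = 0.0247). The call of Ncf4 was lost once shPARP2 replicate 2 or any single scPARP2 array was left out (adjusted p from 0.0555 to 0.0959). The cytosolic activators Ncf1, Noxo1, Noxa1 and Rac1 did not pass the test, with log2 fold changes of -0.01, -0.16, -0.05 and 0.22, nor did Duoxa1, the maturation factor of DUOX1, with one of 0.25 (limma adjusted p = 0.108). The median log2 fold change of the 20 genes was -0.03.

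**Figure D2:**
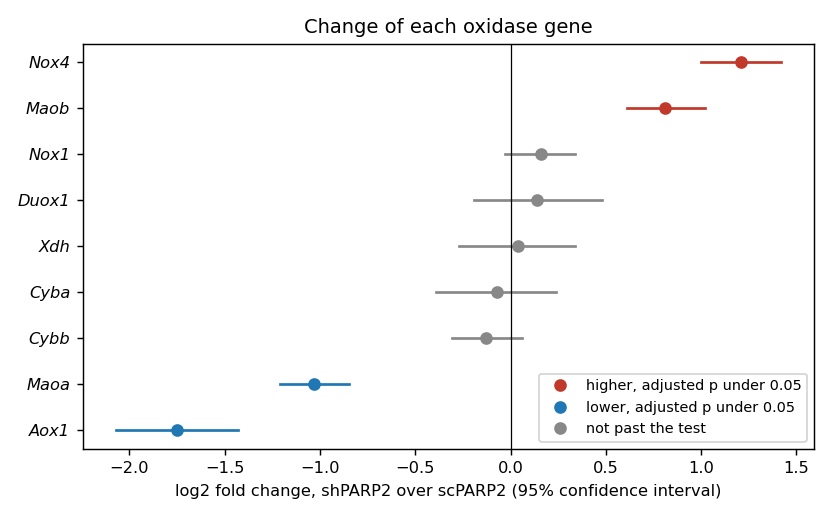
Log2 fold change of shPARP2 over scPARP2 cells (horizontal axis) for the 9 oxidase genes, with 95% confidence intervals from limma over 3 arrays against 3. Nox4 (1.21) and Maob (0.81) lie above 0, Maoa (-1.03) and Aox1 (-1.75) below it, and the intervals of the other 5 genes include 0.

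The monoamine oxidases moved in opposite directions. Maoa (10598771) read 10.50, 10.64 and 10.72 in shPARP2 cells, against 11.62, 11.67 and 11.65 in scPARP2 cells. It averaged 10.62 ± 0.11 in shPARP2 and 11.65 ± 0.02 in scPARP2 cells (SD, n = 3 each), which gives a log2 fold change of -1.03 (SE 0.08, 95% confidence interval -1.21 to -0.85, limma adjusted p = 0.000473), or 49.0% of the scPARP2 signal. Maob (10603746), its neighbour in the genome, read 6.22, 6.38 and 6.23 in shPARP2 cells, against 5.35, 5.50 and 5.55 in scPARP2 cells. The lines were apart for both genes, by 0.91 for Maoa and by 0.67 for Maob. Maob had a log2 fold change of 0.81 (SE 0.08, 95% confidence interval 0.61 to 1.02, limma adjusted p = 0.00156). All 6 values of Maob lay below the receptor level of 6.64, so its rise is one of a dim signal, and of the 1210 receptor probe sets 17 passed the same test.

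Of 15 genes of monoamine handling 12 were measured, 4 of them with a mean above the receptor level (Maoa, Aldh2, Th and the noradrenaline transporter gene Slc6a2). Besides Maoa and Maob none of 10 rose and 1 fell. Over all genes 24% passed the test, and 34.2% of those with a mean above the receptor level. Most of the 10 were below that level, so the low count is not read as a trait of this list. At an unadjusted p under 0.05 the count without the oxidases was the same in limma, and leaving out shPARP2 replicate 3 gave 2 higher genes in the whole list in place of 1. The gene that fell was Aldh2, the mitochondrial aldehyde dehydrogenase that takes up aldehydes such as those the monoamine oxidases make. It read 11.20, 11.44 and 11.14 in shPARP2 cells, against 11.79, 11.83 and 11.84 in scPARP2 cells, a log2 fold change of -0.56 (SE 0.09, limma adjusted p = 0.00847). The enzymes that make monoamines (Th, Ddc, Tph1 and Dbh) had log2 fold changes between -0.10 and 0.04. Of these, Th alone had a mean above the receptor level, at 6.90 in shPARP2 and 6.86 in scPARP2 cells. Of 12 amine and polyamine oxidases 10 were measured, 8 of them with a mean above the receptor level. Besides Maoa and Maob 2 of 8 rose and 1 fell, beside the same 24% of all genes and 34.2% of those above that level. Lox, the copper enzyme that cross-links collagen and releases hydrogen peroxide, read 12.53, 12.70 and 12.27 in shPARP2 cells, against 11.71, 11.78 and 11.76 in scPARP2 cells. Its log2 fold change was 0.75 (SE 0.12, limma adjusted p = 0.00652). The count of amine oxidases that fell was 1 instead of 2 without scPARP2 replicate 1 or 2.

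Aox1 fell most of the 9 oxidases. Its probe set (10346374) read 7.77, 8.08 and 7.57 in shPARP2 cells, against 9.60, 9.51 and 9.55 in scPARP2 cells. The highest shPARP2 array stood 1.43 below the lowest scPARP2 array. Aox1 averaged 7.81 ± 0.26 in shPARP2 and 9.56 ± 0.05 in scPARP2 cells (SD, n = 3 each), which gives a log2 fold change of -1.75 (SE 0.13, 95% confidence interval -2.07 to -1.43, limma adjusted p = 0.000525), or 29.8% of the scPARP2 signal. Xdh, which encodes the related xanthine oxidoreductase (10452815), read 9.96, 10.28 and 9.81 in shPARP2 cells and 9.98, 10.00 and 9.96 in scPARP2 cells. Its log2 fold change of 0.04 (95% confidence interval -0.27 to 0.34, limma adjusted p = 0.901) did not pass the test, and without shPARP2 replicate 2 it was -0.10 (adjusted p = 0.419). In both genes shPARP2 replicate 2 read highest and shPARP2 replicate 3 lowest of the shPARP2 arrays.

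The paralogs of Aox1 were dim in both lines. Aox2, Aox3 and Aox4, which lie beside Aox1 in the genome and encode aldehyde oxidases of other tissues, were below the receptor level on every array. Their means were 6.07, 5.92 and 6.18 in shPARP2 cells, against 6.02, 6.05 and 6.27 in scPARP2 cells. The log2 fold changes of 0.05, -0.13 and -0.09 did not pass the test (limma adjusted p = 0.688, 0.580 and 0.582).

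Genes of the molybdenum cofactor, which aldehyde oxidase, xanthine oxidoreductase and sulfite oxidase all need, were measured for all 13 listed. Besides Aox1 and Xdh, 2 of 11 rose, 1 fell and 8 did not pass the test. Over all genes 24% passed, and 34.2% of those with a mean above the receptor level, where 9 of the 13 stood. The median log2 fold change of the 13 was -0.09. Mocs1, whose product takes the first step of cofactor synthesis, fell beside Aox1. It read 8.31, 8.52 and 8.15 in shPARP2 cells, against 9.79, 9.88 and 9.82 in scPARP2 cells, a log2 fold change of -1.51 (SE 0.10, limma adjusted p = 0.000383), or 35.2% of the scPARP2 signal. The arrays of the lines were 1.27 apart, and Mocs1 passed the test without each array in turn. Suox, the sulfite oxidase, read 10.23, 10.59 and 9.91 in shPARP2 cells, against 9.34, 9.44 and 9.35 in scPARP2 cells. Suox had a log2 fold change of 0.86 (SE 0.17, limma adjusted p = 0.0150), a call lost once shPARP2 replicate 1 or any single scPARP2 array was left out (adjusted p from 0.0502 to 0.0591). Gphn, which encodes gephyrin, the protein that inserts the metal, had one of 0.29 (SE 0.06, limma adjusted p = 0.0235) and lost its call without the same arrays (adjusted p from 0.0621 to 0.121). Gphn was named after its values were seen, and leaving out any of those arrays left no gene of this list called higher.

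Xanthine oxidoreductase makes urate, the last product of purine breakdown in humans, which mice break down further with urate oxidase. All 15 genes of purine breakdown and salvage were measured, and besides Xdh 2 of 14 rose, 5 fell and 7 did not pass the test. Among the 5 was Gda, named here after its values were seen, with a log2 fold change of -0.39 (limma adjusted p = 0.0287). Gda stayed below the receptor level on every array, so its fall is one of a dim signal. The share of all genes that passed was 24%, and 34.2% among those with a mean above the receptor level. Ampd3, an AMP deaminase, read 10.81, 10.84 and 10.92 in shPARP2 cells, against 11.85, 11.74 and 11.83 in scPARP2 cells. It fell by 0.95 on the log2 scale (SE 0.07, limma adjusted p = 0.000409). Aprt, which salvages adenine, fell by 0.71 (SE 0.07, limma adjusted p = 0.00138), and Hprt, which salvages hypoxanthine and guanine, rose by 0.56 (SE 0.07, limma adjusted p = 0.00372). Leaving out scPARP2 replicate 1 or 2 left 2 lower genes in this list, leaving out shPARP2 replicate 1 or scPARP2 replicate 3 left 3, and leaving out scPARP2 replicate 2 or 3 left 1 higher gene. The call of Ampd3, Aprt and Hprt held without each array in turn.

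Of 17 other oxidases that release hydrogen peroxide 15 were measured, with 3 higher, 3 lower and 9 not past the test. Among all genes 24% passed, and 34.2% of those with a mean above the receptor level. Acox2, the peroxisomal acyl-CoA oxidase for branched chains and bile acid precursors, read 8.36, 8.11 and 8.57 in shPARP2 cells, against 9.69, 9.76 and 9.73 in scPARP2 cells. It fell by 1.38 on the log2 scale (SE 0.12, limma adjusted p = 0.000833). Qsox2, a sulfhydryl oxidase, fell by 0.68 (SE 0.10, limma adjusted p = 0.00593). Rnls, which encodes renalase, had a log2 fold change of 0.49 (SE 0.10, limma adjusted p = 0.0201), and its call ended without scPARP2 replicate 1 or 3 or shPARP2 replicate 1 (adjusted p from 0.0519 to 0.0726). Without scPARP2 replicate 3 the higher genes of this list numbered 1.

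**Figure D3:**
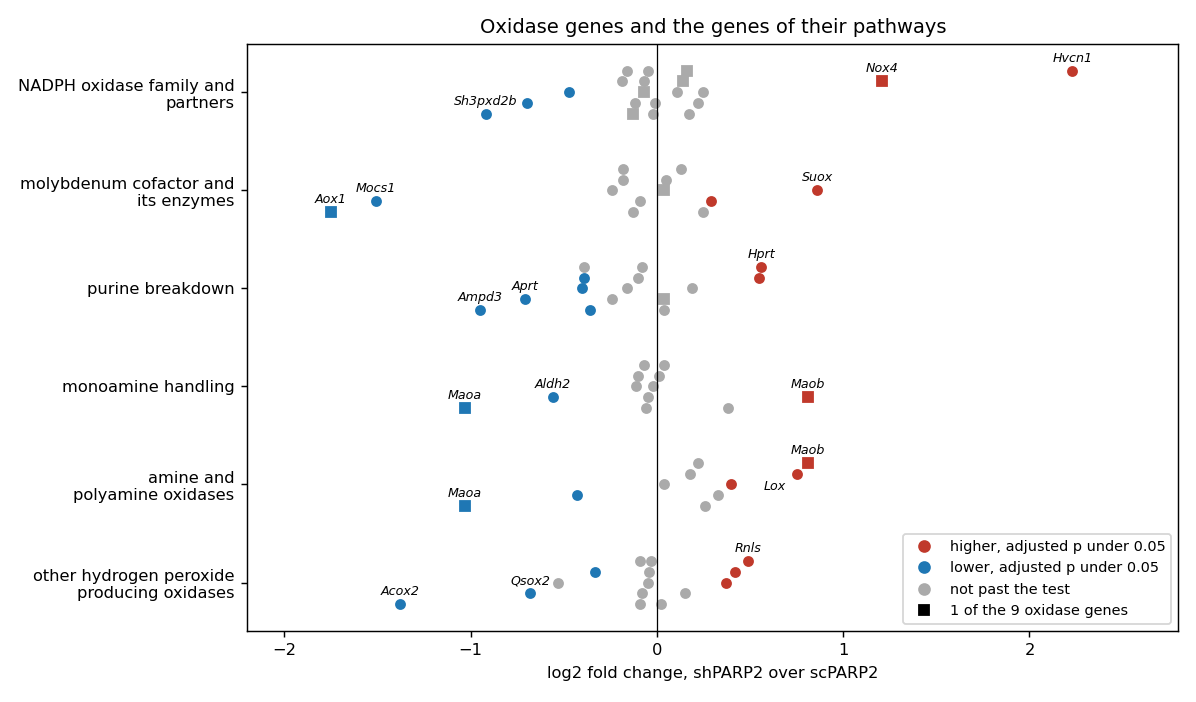
Log2 fold change of shPARP2 over scPARP2 cells (horizontal axis) for the measured genes of 6 lists around the oxidases, 1 list a row; the vertical offset within a row only separates points. Red and blue points passed the test upward and downward, grey points did not, squares are the 9 oxidase genes, and the named genes run from Aox1 at -1.75 to Hvcn1 at 2.23.

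The genes whose profile over the 6 arrays was nearest to that of Aox1 were Car8, Fam20c and Dab2. Nearness was the Euclidean distance between log2 values taken from the scPARP2 mean, over 6 arrays and among 11252 genes with a mean above the median signal. The distances were 0.08 for Car8, 0.15 for Fam20c and 0.15 for Dab2. Car8, a carbonic anhydrase-related protein, read 7.98, 8.34 and 7.81 in shPARP2 cells, against 9.84, 9.82 and 9.76 in scPARP2 cells. Fam20c, a kinase of secreted proteins, read 9.61, 9.84 and 9.49 in shPARP2 cells, against 11.35, 11.33 and 11.36 in scPARP2 cells. Dab2, an endocytic adaptor, read 9.38, 9.67 and 9.08 in shPARP2 cells, against 11.22, 11.18 and 11.17 in scPARP2 cells. As in Aox1, shPARP2 replicate 2 was the highest and shPARP2 replicate 3 the lowest of the shPARP2 arrays in each of these genes. A distance over the same arrays favours such a match, and Xdh and Mocs1 showed the same order. The log2 fold changes were -1.76, -1.70 and -1.82, close to that of Aox1, which is what this measure picks.

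**Figure D4:**
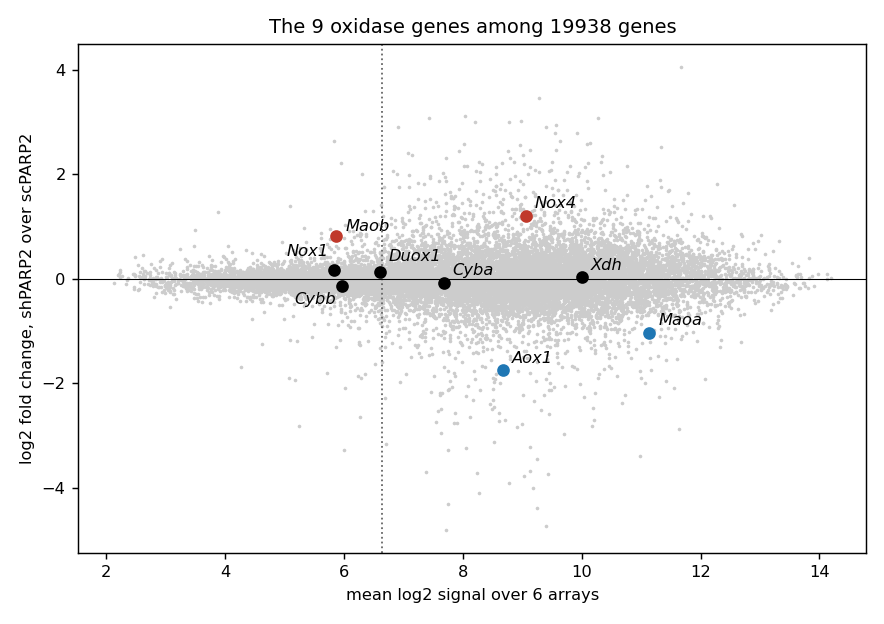
Log2 fold change of shPARP2 over scPARP2 cells (vertical axis) against the mean log2 signal over 6 arrays (horizontal axis) for 19938 genes in grey, with the 9 oxidase genes as large points (red higher, blue lower, black not past the test). The dotted line is the 95th percentile of the receptor probe sets (6.64); Nox1, Cybb, Maob and Duox1 lie to its left, and Aox1 has the lowest log2 fold change of the 9.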

How the data were processed

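Total RNA of 3 shPARP2 and 3 scPARP2 samples of C2C12 cells was measured on Affymetrix Mouse Gene arrays. The authors deposited log2 signals for 35556 probe sets, and the submitters' processing notes name RMA. Its version and array library were not given in the sources used here. These log2 signals were used without change. A microarray has no read depth, and the 3 arrays per line and the signal over background limit the precision.

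Of the probe sets, 21789 name 1 gene in the platform annotation, 1621 name several and 12146 are not named here. A gene was read from its brightest single-gene probe set by mean over 6 arrays. Differences (shPARP2 minus scPARP2) were fitted with limma 3.58.1 in R 4.3.3 (a linear model per probe set with empirical Bayes, without covariates), the test the study's methods name, and adjusted by Benjamini-Hochberg over all probe sets. The fit was tested on simulated data. Dim signal was set against the 95th percentile of olfactory and vomeronasal receptor probe sets. Promoter windows came from RefSeq (GRCm38.p6). Figures were drawn with matplotlib 3.10.9.

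The members, lists and tests were chosen with earlier results of these data known. Named were all 9 oxidases, Parp2 and up to 3 called genes of each list by size of change. Also named were the 3 profiles nearest to the most changed oxidase. Outside this rule stand cell type markers, Poldip2, Ncf4, Gphn and Gda. So do the oxidase activators, monoamine-handling genes and aldehyde oxidase paralogs, named for their roles with their values known. The alternatives were quantile normalization, median centring, leaving out probe sets under the 40th percentile of signal, single-gene probe sets only, array weights, a trended and robust variance, a block for the replicate number, a 1.5-fold minimum, thresholds of 0.01 on the adjusted and 0.05 on the unadjusted p, averaging a gene's probe sets and leaving out each array. Running them for the partner genes and lists was added after the data were examined.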

Additional observations from a re-analysis of the deposited data

How the results depend on the processing

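The calls of Nox4, Maob, Aox1 and Maoa and of Parp2 held under every alternative run, except that the dim Maob is not tested once probe sets under the 40th percentile are left out, so that 1 oxidase instead of 2 was higher there. Nox1 and Cybb kept their sign and did not pass in any alternative in which they were tested. With array weights, which give shPARP2 replicates 2 and 3 little weight (0.292 and 0.402), the log2 fold changes of Cyba, Duox1 and Xdh changed sign to 0.03, -0.02 and -0.004, and leaving out single arrays moved Cyba between -0.16 and 0.07 and Xdh between -0.10 and 0.14; none of these passed the test.

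Over all probe sets 3345 were higher and 3249 lower. The counts were 1736 and 1589 at an adjusted p under 0.01, 1458 and 1327 with a 1.5-fold minimum and 5099 and 5449 at an unadjusted p under 0.05, and 4941 were lower with array weights. Leaving out single arrays gave 1842 to 3449 higher and 1761 to 3782 lower. After median centring 56.9% of the calls were higher, against 50.7% before.

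Same-numbered arrays of the lines showed little shared deviation (correlations of -0.05, 0.09 and 0.01), and differently numbered ones gave -0.1 to 0.09. Deviations from means of 3 arrays cannot settle whether same-numbered samples were handled together, which the labels do not say. The main fit did not pair them. With the replicate number as a block, 2455 probe sets were higher and 2338 lower; 2 oxidases were higher and 2 lower as before, with log2 fold changes of 1.21 for Nox4 and -1.75 for Aox1. Under the block, the genes called lower numbered 3 instead of 5 in purine breakdown, 1 instead of 2 among amine oxidases and 2 instead of 3 in the NADPH oxidase system, and 1 instead of 2 genes of the molybdenum cofactor was called higher, while 1 macrophage and leukocyte marker instead of none was. Des, Gphn and Ncf4 lost their calls (limma adjusted p = 0.0625, 0.0861 and 0.065). With array weights, 4 instead of 2 genes of the NADPH oxidase system were higher and 4 instead of 3 were lower.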
